A study of Mus musculus with 17 samples.

Results

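Keratins are the proteins of the intermediate filaments of epithelial cells. The genes described here are the 54 genes of the deposited table whose symbol is Krt followed by a number and at most 1 letter, joined by Krtdap, Dmkn and Lor, genes of differentiating keratinocytes. They make up 57 of the 54658 genes of the table. They were sorted by the epithelium that each keratin is known from into 6 keratins of simple (1-layered) epithelium, 42 keratins of skin, hair and stratified mucosa (basal, suprabasal, stress and appendage, mucosal, inner root sheath and hair shaft), the 3 keratinocyte genes and 6 remaining keratins. RNA was sequenced from 16 mouse libraries, 2 for each of 8 group codes. Mouse embryonic fibroblasts (MEF) from wildtype (WT) pups or from pups with a homozygous leptin knockout (KO) were injected under the skin over the sternum of LD mice, a host type that the labels do not spell out, at 3 to 5 weeks of age, and grew into tissue resembling fat. MWM and MWF are WT implants of males and females, and MKM and MKF are KO implants of males and females, all with surgery that destabilized the medial meniscus of the left knee at 16 weeks. The fat of the hosts themselves was visceral for EVM, whose animals had the surgery, and for EVFN, whose animals did not. EVFY is a code that the labels do not spell out, but its genotype field says Vis. EVM holds the letter M, and EVFY and EVFN the letter F, that mark males and females in the implant codes. ESM is subcutaneous fat of males with surgery. All animals ended at 28 weeks. The design text calls the hosts male although some codes name females, gives neither the allele nor the promoter of any transgene, and does not say whether animals were pooled or whether libraries come from separate animals, so the p-values below measure the spread between libraries, which may be technical. A labelled sample of subcutaneous fat from females, and implants from heterozygous donors, are not analysed here.

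Each keratin filament is built from a type I and a type II keratin, which pair in the cytoplasm. Krt8 (type II) and Krt18 (type I) are the founding pair of simple epithelia such as liver, gut and gland, where Krt7 and Krt19 are added in ducts, airways and mesothelium, the sheet of cells that covers visceral fat. Krt5 and Krt14 form the pair of the basal layer of stratified epithelia, Krt1 and Krt10 replace them in the layers above, and separate keratins build nails, hair and the follicle around it. Adipocytes, fibroblasts and muscle use other intermediate filament proteins, such as vimentin and desmin, and keratins are ordinarily used as marks of epithelial cells. In bulk RNA, fewer cells of a type and less RNA per cell cannot be told apart.

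The keratin genes lie in a pair of clusters, with 27 of the genes on chromosome 11 and 27 on chromosome 15 (mm10, GENCODE M21). Krt18 is the type I gene that sits in the type II cluster. It lies on the plus strand of chromosome 15 (102028180 to 102032027), 23697 bases from the end of Krt8, which lies on the minus strand (101996698 to 102004482). The promoter windows of 4 genes are shown because their RNA levels below fall into 3 patterns: Krt8 with Krt18, Krt7, and Krt5. They are RefSeq windows of GRCm38.p6 that run from 250 bases before to 50 bases after the annotated start, 5′ to 3′ on the strand of the gene. Krt8 is chr15:102004293-102004592 on the minus strand, Krt18 is chr15:102027966-102028265 on the plus strand, Krt7 is chr15:101412153-101412452 on the plus strand and Krt5 is chr15:101712856-101713155 on the minus strand. Capitals mark matches on either strand to the letters of a TATA box (TATAAA), a GC box (GGGCGG), an AP-1 motif (TGANTCA) or an AP-2 motif (GCCNNNGGC).
Krt8: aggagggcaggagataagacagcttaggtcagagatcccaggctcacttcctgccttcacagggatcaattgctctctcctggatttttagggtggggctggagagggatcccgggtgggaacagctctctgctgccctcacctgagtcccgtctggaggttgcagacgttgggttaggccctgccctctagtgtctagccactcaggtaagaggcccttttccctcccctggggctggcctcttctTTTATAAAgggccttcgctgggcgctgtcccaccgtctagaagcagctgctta
Krt18: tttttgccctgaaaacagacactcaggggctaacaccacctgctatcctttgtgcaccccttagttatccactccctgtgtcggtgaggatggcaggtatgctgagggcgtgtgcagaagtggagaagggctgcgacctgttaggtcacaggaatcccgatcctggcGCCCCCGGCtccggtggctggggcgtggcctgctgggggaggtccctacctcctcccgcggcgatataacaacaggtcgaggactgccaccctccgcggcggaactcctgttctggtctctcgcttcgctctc
Krt7: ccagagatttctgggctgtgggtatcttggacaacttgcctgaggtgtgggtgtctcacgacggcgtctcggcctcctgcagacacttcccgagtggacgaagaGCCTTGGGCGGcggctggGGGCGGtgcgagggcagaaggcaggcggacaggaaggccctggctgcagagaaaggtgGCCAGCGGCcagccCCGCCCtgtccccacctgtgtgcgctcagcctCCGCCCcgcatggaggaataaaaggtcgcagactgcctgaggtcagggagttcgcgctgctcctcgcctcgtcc
Krt5: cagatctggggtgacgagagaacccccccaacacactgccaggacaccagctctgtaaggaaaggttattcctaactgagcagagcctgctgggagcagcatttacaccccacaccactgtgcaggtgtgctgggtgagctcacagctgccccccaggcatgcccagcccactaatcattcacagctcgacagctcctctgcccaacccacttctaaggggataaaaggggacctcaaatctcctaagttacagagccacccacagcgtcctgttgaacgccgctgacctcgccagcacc
The Krt8 window holds a single stretch with a TATA match on each strand, which overlap. These matches begin at -3 and -1 from the annotated start, so the stretch runs across it. The Krt18 window holds a single AP-2 match. The Krt7 window holds 4 GC boxes and 2 AP-2 matches, and the first AP-2 match overlaps a GC box. The Krt5 window holds none of the 4 motifs. Among 32851 windows of the same length, 13.6% held the TATA letters, 35.7% the GC box, 7.81% the AP-1 letters and 16.6% the AP-2 letters. A match is a string of letters and not a binding site, and no match says only that these letters are not in this window. The table of windows held 39 of the 57 members.

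Values are CPM, reads of a gene per 1000000 reads of its library. Libraries held 16444965 to 25805502 reads, so 1 read was worth 0.039 to 0.061 CPM, and a count of 0 allows up to 3 reads. The labels name the tissue as ganglia, but a set of 8 adipocyte genes summed to 11772 to 35954 CPM and 11 sensory neuron genes to 8.30 to 53.9 CPM. A pair of libraries went against their labels. Over all genes the library labelled EVFN1 was most like MKF1 (r = 0.984 across genes, against 0.906 with EVFN2) and the library labelled MKM1 was most like EVFY1 (r = 0.989, against 0.890 with MKM2). These r are across genes, which are not replicates. Both libraries are shown singly and left out of means and tests, and each count of called genes is also given with all 16 libraries as labelled. This leaves 4 libraries of WT implants, 3 of KO implants (1 of them male), 5 of visceral fat and 2 of subcutaneous fat. The visceral side pools EVM, with surgery, EVFN, without it, and EVFY. Comparisons with visceral fat thus mix surgery, and the sexes that the codes name, with tissue.

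Of the 57 members, 33 stayed under 1 CPM in every library, and 12 of these had no read at all. A level of at least 1 CPM in at least 2 of the 14 libraries was reached by 18 members, and these were tested. Members that pass this filter only through the libraries in which they are high had to differ between libraries, so counts among the 18 are descriptions.

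**Figure D1:**
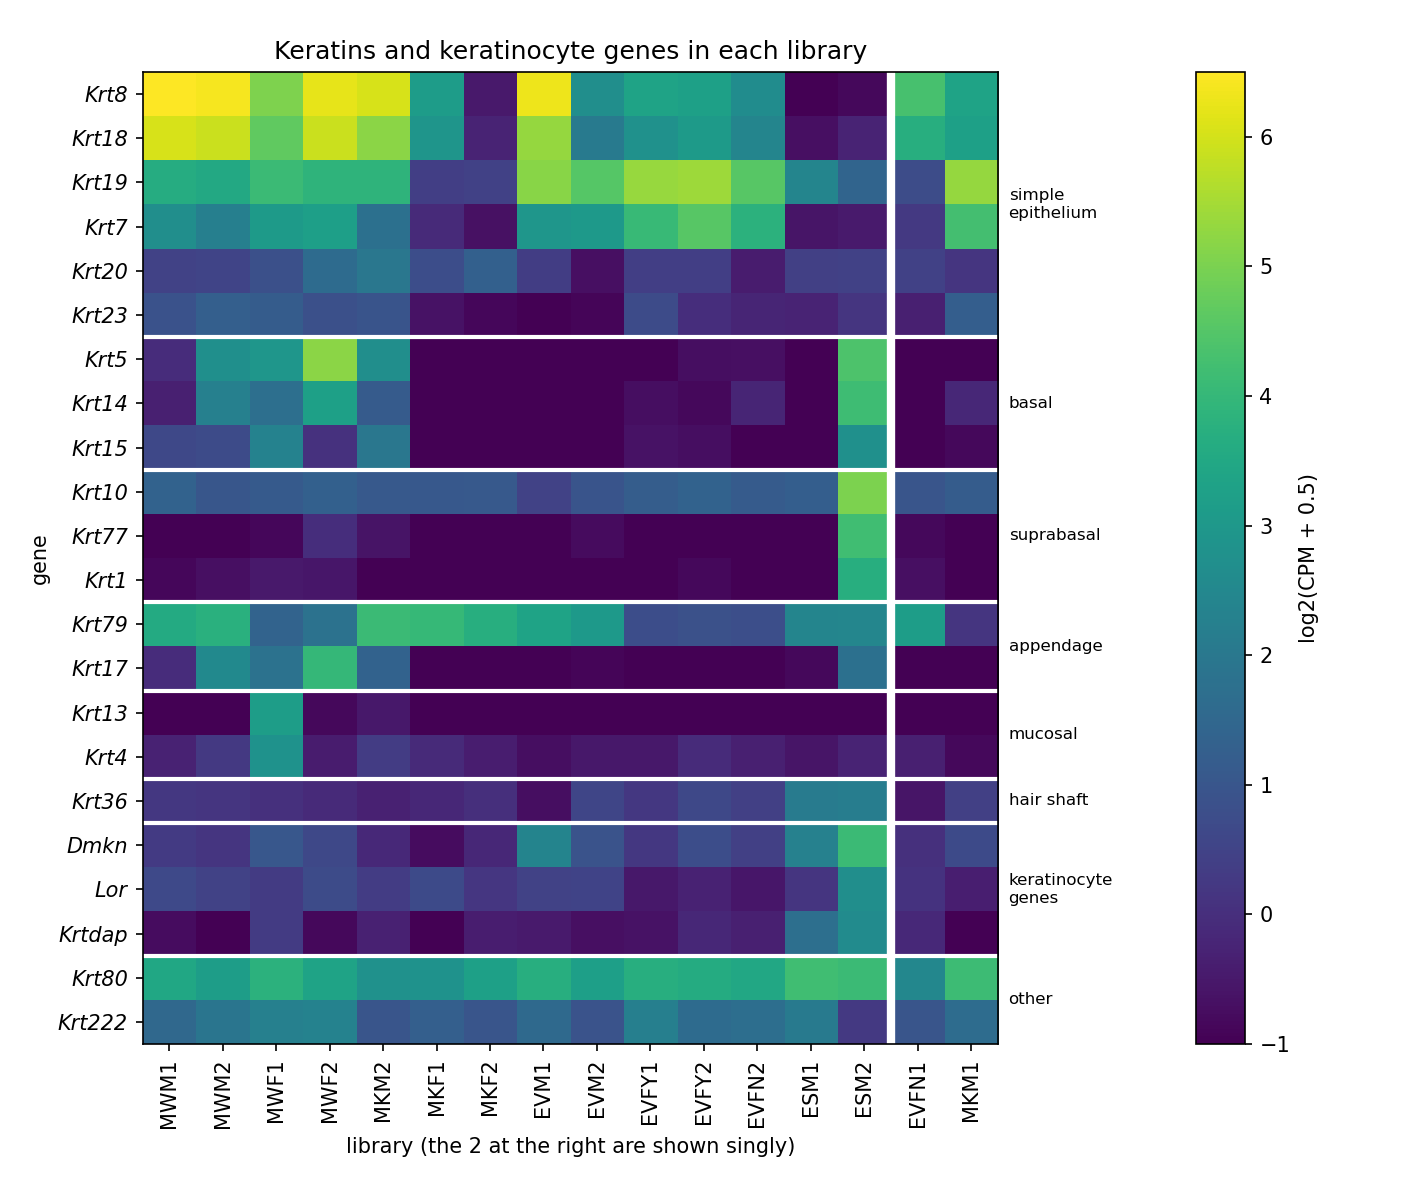
Log2(CPM + 0.5) of the 22 members that were tested or are named by rule (rows, grouped by class) in each of the 16 libraries (columns), with the libraries labelled EVFN1 and MKM1 set apart at the right. Krt8 and Krt18 are brightest in the 4 WT implants, MKM2 and EVM1, while the suprabasal keratins are bright in ESM2.

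The simple-epithelium pair Krt8 and Krt18 gave the clearest levels in the implants of WT donors. Krt8 was at 90.02 CPM in MWM1, 84.5 in MWM2, 32.4 in MWF1 and 74.4 in MWF2. The 3 KO implants spanned nearly the whole range, with Krt8 at 65.2 CPM in MKM2, 8.26 in MKF1 and 0.215 in MKF2. In visceral fat Krt8 was at 79.2 CPM in EVM1 and at 5.97, 9.65, 9.10 and 5.70 in EVM2, EVFY1, EVFY2 and EVFN2. In subcutaneous fat it had no read in ESM1 and 1 read (0.057 CPM) in ESM2. The WT implants all lay above MKF1, MKF2, 4 of the 5 visceral libraries and both subcutaneous libraries, and overlapped with MKM2 and EVM1.

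Krt18 followed the same order of groups. It was at 65.7, 58.9, 25.1 and 59.5 CPM in MWM1, MWM2, MWF1 and MWF2, at 36.1, 7.05 and 0.343 CPM in MKM2, MKF1 and MKF2, and at 39.1 CPM in EVM1 against 3.72 to 8.06 CPM in the other 4 visceral libraries. ESM1 and ESM2 had 0.113 and 0.342 CPM. Per kilobase of exon the ratio of Krt8 to Krt18 was 0.783 to 1.49 with a median of 1.01 over the 13 libraries with at least 30 reads of each. The partners of the filament pair were thus at like levels per length in every library where both could be measured, while their summed level ran from 155.8 CPM (MWM1) to 0.113 CPM (ESM1).

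Krt7 and Krt19, the keratins of ducts and mesothelium, had another order. Krt19, a short type I keratin on chromosome 11 (100140810 to 100148665, minus strand), was at 35.6, 22.6, 40.3, 41.8 and 22.99 CPM in EVM1, EVM2, EVFY1, EVFY2 and EVFN2. It was at 12.1, 11.01, 16.9 and 14.2 CPM in MWM1, MWM2, MWF1 and MWF2, at 14.1 in MKM2, and at 0.821 and 0.859 CPM in MKF1 and MKF2. ESM1 and ESM2 had 4.88 and 2.16 CPM. The visceral libraries all lay above the WT implants, which all lay above subcutaneous fat, and the KO implants split into MKM2 beside the WT implants and MKF1 and MKF2 below every other library of the 14.

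Krt7, a type II keratin on chromosome 15 (101411043 to 101430313, plus strand), was at 7.25, 7.60, 16.1, 22.8 and 13.49 CPM in EVM1, EVM2, EVFY1, EVFY2 and EVFN2. The WT implants had 5.97, 4.24, 7.97 and 8.94 CPM (MWM1, MWM2, MWF1, MWF2), and MKM2, MKF1 and MKF2 had 2.90, 0.435 and 0.129 CPM. ESM1 and ESM2 had 0.170 and 0.228 CPM. Krt7 in WT implants lay above all 3 KO implants and overlapped with the lower visceral libraries EVM1 and EVM2.

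**Figure D2:**
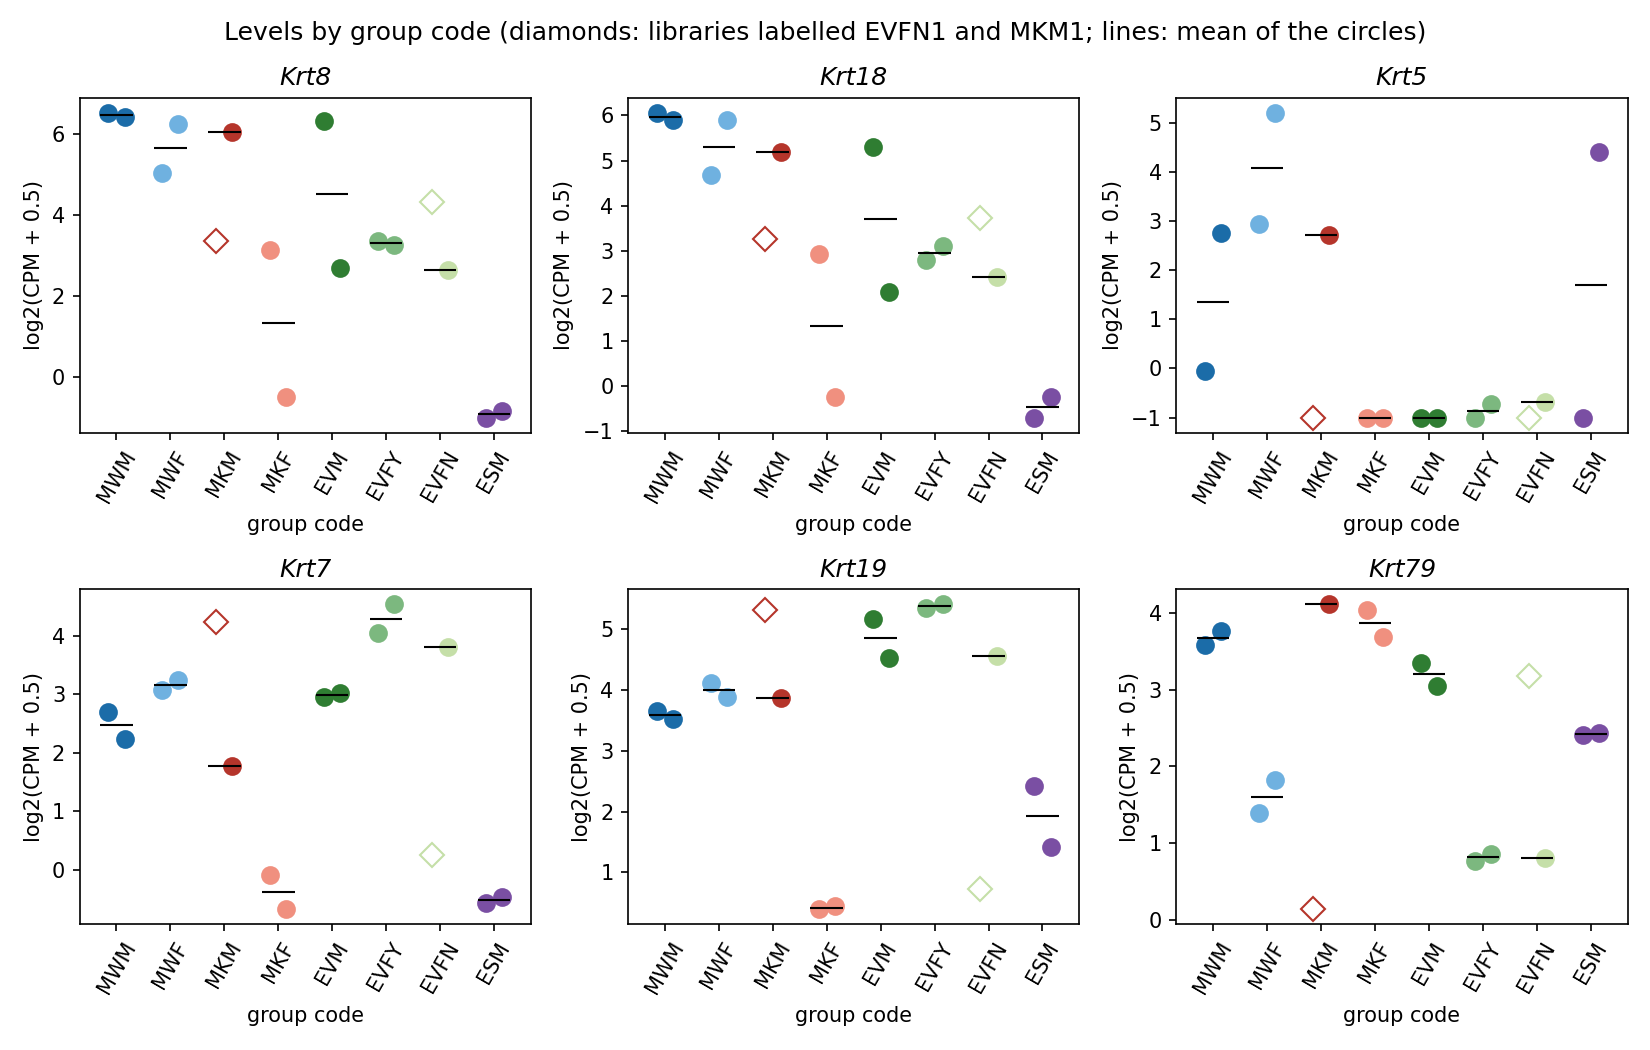
Log2(CPM + 0.5) of 6 keratins by group code, with a circle for each library, open diamonds for the libraries labelled EVFN1 and MKM1, and a line at the mean of the circles. Krt8 and Krt18 are high in MWM and MWF and split within EVM and MKF, Krt7 and Krt19 are high in the visceral codes, and Krt79 is high in MKM, MKF, MWM and EVM.

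**Figure D3:**
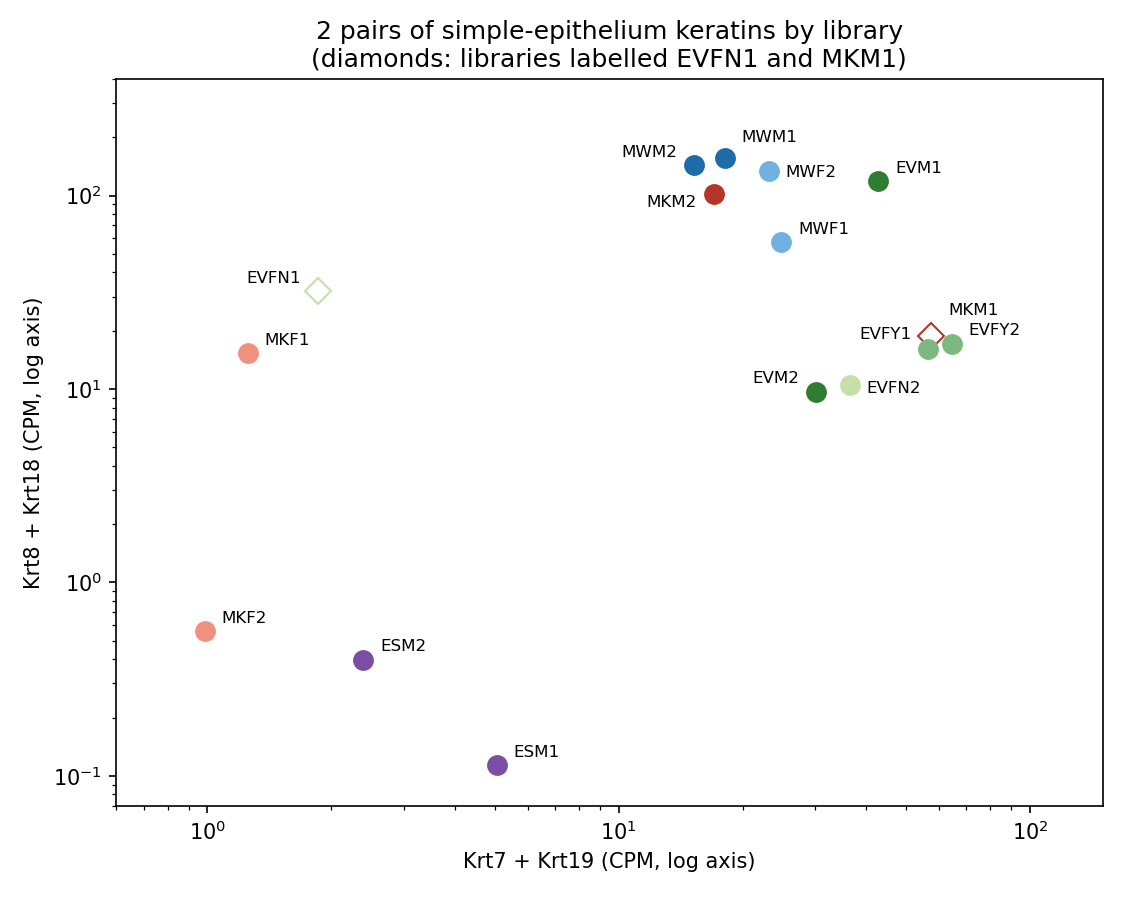
Summed CPM of Krt8 and Krt18 against that of Krt7 and Krt19, both on log axes, with a point for each library. The WT implants and MKM2 lie at 57.5 to 155.8 CPM on the vertical axis and 15.3 to 24.9 on the horizontal one, the visceral libraries other than EVM1 lie at 9.69 to 17.2 and 30.2 to 64.6, and MKF1 has 15.3 CPM of the first pair with 1.26 CPM of the second.

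The libraries therefore differed in which simple-epithelium keratins they held. The summed level of Krt8 and Krt18 was 155.8, 143.4, 57.5 and 133.8 CPM in the WT implants, where Krt7 and Krt19 summed to 18.1, 15.3, 24.9 and 23.2 CPM. In EVM2, EVFY1, EVFY2 and EVFN2 the first sum was 9.69, 16.0, 17.2 and 10.5 CPM and the second 30.2, 56.4, 64.6 and 36.5 CPM. EVM1 held much of both, with 118.3 and 42.8 CPM. MKF1 held the first pair (15.3 CPM) almost without the second (1.26 CPM), and MKF2 held little of either (0.558 and 0.987 CPM).

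In the test across all genes (limma on log2(CPM + 0.5) with Benjamini-Hochberg adjustment), KO implants differed from WT implants in 3 of the 18 tested members, 1 higher and 2 lower, against 10.8% of all 17871 genes tested (6.67% higher and 4.1% lower). Krt7 fell from 6.78 ± 2.10 CPM (SD, n = 4) to 1.16 ± 1.52 (n = 3), with log2 fold change -2.12 (SE 0.22, adjusted p = 0.000899, limma). Krt19 fell from 13.6 ± 2.59 to 5.26 ± 7.66 CPM, with log2 fold change -1.65 (SE 0.26, adjusted p = 0.00519, limma). The groups overlapped for Krt19, since MKM2 lay among the WT implants. MKM2 (14.1 CPM) lay above both male WT implants (12.1 and 11.01 CPM). MKF1 and MKF2 (0.821 and 0.859 CPM) lay below both female ones (16.9 and 14.2 CPM). The fall of Krt19 thus came from the female libraries, and its SE, pooled from spread within codes, does not measure this split. Whether the difference of Krt7 or of Krt19 varied with sex was not tested. The third called gene, Krt79, rose and is described with the appendage keratins. Krt8 and Krt18 did not pass, with log2 fold changes of -2.36 (SE 1.00, adjusted p = 0.162, limma) and -2.37 (SE 0.90, adjusted p = 0.125, limma). Krt18 passed without MKF1 (adjusted p = 0.0466, limma), and both passed without MKM2, which leaves the female KO implants alone: Krt8 then had a log2 fold change of -4.72 (adjusted p = 0.0258, limma) and Krt18 of -4.30 (adjusted p = 0.0247, limma), and 6 members were called. With all 16 libraries as labelled 0 members were called by limma (1.72% of all genes), and 5 had an unadjusted p under 0.05 (Krt5, Krt8, Krt17, Krt18 and Krt23).

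WT implants differed from visceral fat in 8 of the 18, 6 higher and 2 lower, against 22.4% of all genes (15.9% higher and 6.5% lower). Krt18 rose from 12.4 ± 15.0 CPM (SD, n = 5) in visceral fat to 52.3 ± 18.4 (n = 4), with log2 fold change 2.62 (SE 0.78, adjusted p = 0.0425, limma). Krt8 had a similar log2 fold change of 2.56 (SE 0.87) and missed the threshold (adjusted p = 0.0637, limma). Krt8 passed without MKF1, MKF2 or EVM1, and without EVM1 both had larger values, with log2 fold changes of 3.17 for Krt8 (adjusted p = 0.021, limma) and 3.16 for Krt18 (adjusted p = 0.0138, limma). The call of Krt18 was lost in 10 of the 14 fits that leave out 1 library, namely those without any WT implant, any visceral library but EVM1, or either ESM library. Krt19 fell from 32.6 ± 9.29 to 13.6 ± 2.59 CPM (log2 fold change -1.13, SE 0.22, adjusted p = 0.00955, limma) with no overlap between the groups. Krt7 fell from 13.4 ± 6.45 to 6.78 ± 2.10 CPM (log2 fold change -0.88, SE 0.19, adjusted p = 0.0149, limma), with overlap, and without MWM2 it missed the threshold (adjusted p = 0.0616, limma). Of the lower simple-epithelium keratins, Krt20, a keratin of gut and urothelium, and Krt23 rose by 0.94 (SE 0.28, adjusted p = 0.0411, limma) and 1.31 (SE 0.23, adjusted p = 0.00551, limma) on the log2 scale, and the call of Krt20 was lost in 11 of the 14 fits that leave out 1 library. Both were at no more than 3.41 CPM in any library and, like Krt36 and Krt222, were picked with their values in view. Over all 16 libraries as labelled 2 members were called (Krt17 and Krt23), against 9.66% of all genes, and the 14-library count fell to 3 without MWM2, 4 without MWF2, and 5 without MWM1, EVM2, EVFY1, EVFY2 or EVFN2.

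KO implants differed from visceral fat in 5 of the 18, 2 higher and 3 lower, against 24.6% of all genes (16.4% higher and 8.25% lower), a share near that background. Krt19 fell by 2.78 (SE 0.25, adjusted p = 0.000196, limma) and Krt7 by 3.01 (SE 0.22, adjusted p = 0.0001, limma) on the log2 scale, each without overlap. Krt20 rose by 1.58 (SE 0.31, adjusted p = 0.00736, limma), and without MKM2 missed the threshold (adjusted p = 0.0528, limma). Krt8 and Krt18 had log2 fold changes of 0.20 (SE 0.97, adjusted p = 0.906, limma) and 0.25 (SE 0.88, adjusted p = 0.867, limma) and did not pass. Without MKM2, 3 members were called, and with all 16 libraries as labelled limma called 0 (0% of all genes), with 4 at an unadjusted p under 0.05 (Krt7, Krt19, Krt20 and Krt23). These comparisons share the visceral libraries with the one above.

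Subcutaneous fat held almost no RNA of the founding pair. WT implants differed from it in 8 of the 18 members, 5 higher and 3 lower, against 10.4% of all genes (8.57% higher and 1.82% lower). The 5 higher ones were all simple-epithelium keratins. Krt8 had 5245 reads in the WT implants and 1 read in ESM1 and ESM2 together, a ratio of 2490 at equal depth (exact 95% counting interval 446 to 98200), and passed the test (adjusted p = 0.00626, limma). Krt18 was at 52.3 ± 18.4 against 0.228 ± 0.161 CPM (n = 2), with log2 fold change 6.11 (SE 0.98, adjusted p = 0.00695, limma). Krt7 rose by 3.33 (SE 0.25, adjusted p = 0.000539, limma), Krt19 by 1.88 (SE 0.28, adjusted p = 0.00551, limma) and Krt23 by 1.08 (SE 0.29, adjusted p = 0.0463, limma), with no overlap. The calls of Krt8 and Krt18 were lost without ESM1 (adjusted p = 0.0613 and 0.0685, limma), and that of Krt23 in 8 of the 14 fits that leave out 1 library. The count was 5 without ESM1 or without ESM2, and 5 with all 16 libraries as labelled (2.47% of all genes), namely Krt8, Krt18, Krt36, Dmkn and Krtdap.

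KO implants differed from subcutaneous fat in 8 of the 18, 4 higher and 4 lower, against 18.3% of all genes (13.4% higher and 4.9% lower). Krt8 gave 1456 reads against 1 (ratio 805, exact 95% counting interval 144 to 31800, adjusted p = 0.0278, limma), Krt18 rose by 3.74 (SE 1.06, adjusted p = 0.0406, limma) and Krt7 by 1.21 (SE 0.27, adjusted p = 0.0152, limma). Without MKM2 their adjusted p was 0.279, 0.33 and 0.801 (limma). All 3 calls were also lost without ESM1 or ESM2, and that of Krt18 in 10 of the 14 fits in all. Krt19, not called over the 3 KO implants, had a log2 fold change of 0.22 (SE 0.30) with MKM2 and of -1.50 without it (adjusted p = 0.0169, limma). With all 16 libraries as labelled 2 members were called, Dmkn and Krtdap (0.273% of all genes), and without ESM2 the 14-library count was 4.

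Visceral fat differed from subcutaneous fat in 4 of the 18, 2 higher and 2 lower, against 1.2% of all genes (0.565% higher and 0.632% lower). Krt7 rose from 0.199 ± 0.0408 CPM (SD, n = 2) to 13.4 ± 6.45 (n = 5), with log2 fold change 4.21 (SE 0.24, adjusted p = 7.58e-05, limma), and Krt19 by 3.01 (SE 0.27, adjusted p = 0.00112, limma). Both were called in each of the 14 fits that leave out 1 library. Krt8 gave 2027 reads against 1 (ratio 723, exact 95% counting interval 130 to 28600) but did not pass (adjusted p = 0.133, limma), and passed without EVM2 (adjusted p = 0.0355, limma), as Krt18 did (adjusted p = 0.0499, limma). With all 16 libraries as labelled, 1 member, Krtdap, was called (0.323% of all genes), and without ESM2 the count was 2.

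Male implants differed from female ones in 2 of the 18, both higher, against 2.19% of all genes (0.453% higher and 1.74% lower). Krt19 was higher in males by 1.52 (SE 0.26, adjusted p = 0.0331, limma) with overlap, since MWF1 and MWF2 lay with the male libraries and MKF1 and MKF2 below them. Krt79 is described below. The count was 0 without MWM1, MWM2 or MWF1, 1 without MWF2, EVFY1, EVFY2, ESM1 or ESM2, and 0 with all 16 libraries as labelled (2.29% of all genes), with 2 at an unadjusted p under 0.05 (Krt19 and Krt23).

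**Figure D4:**
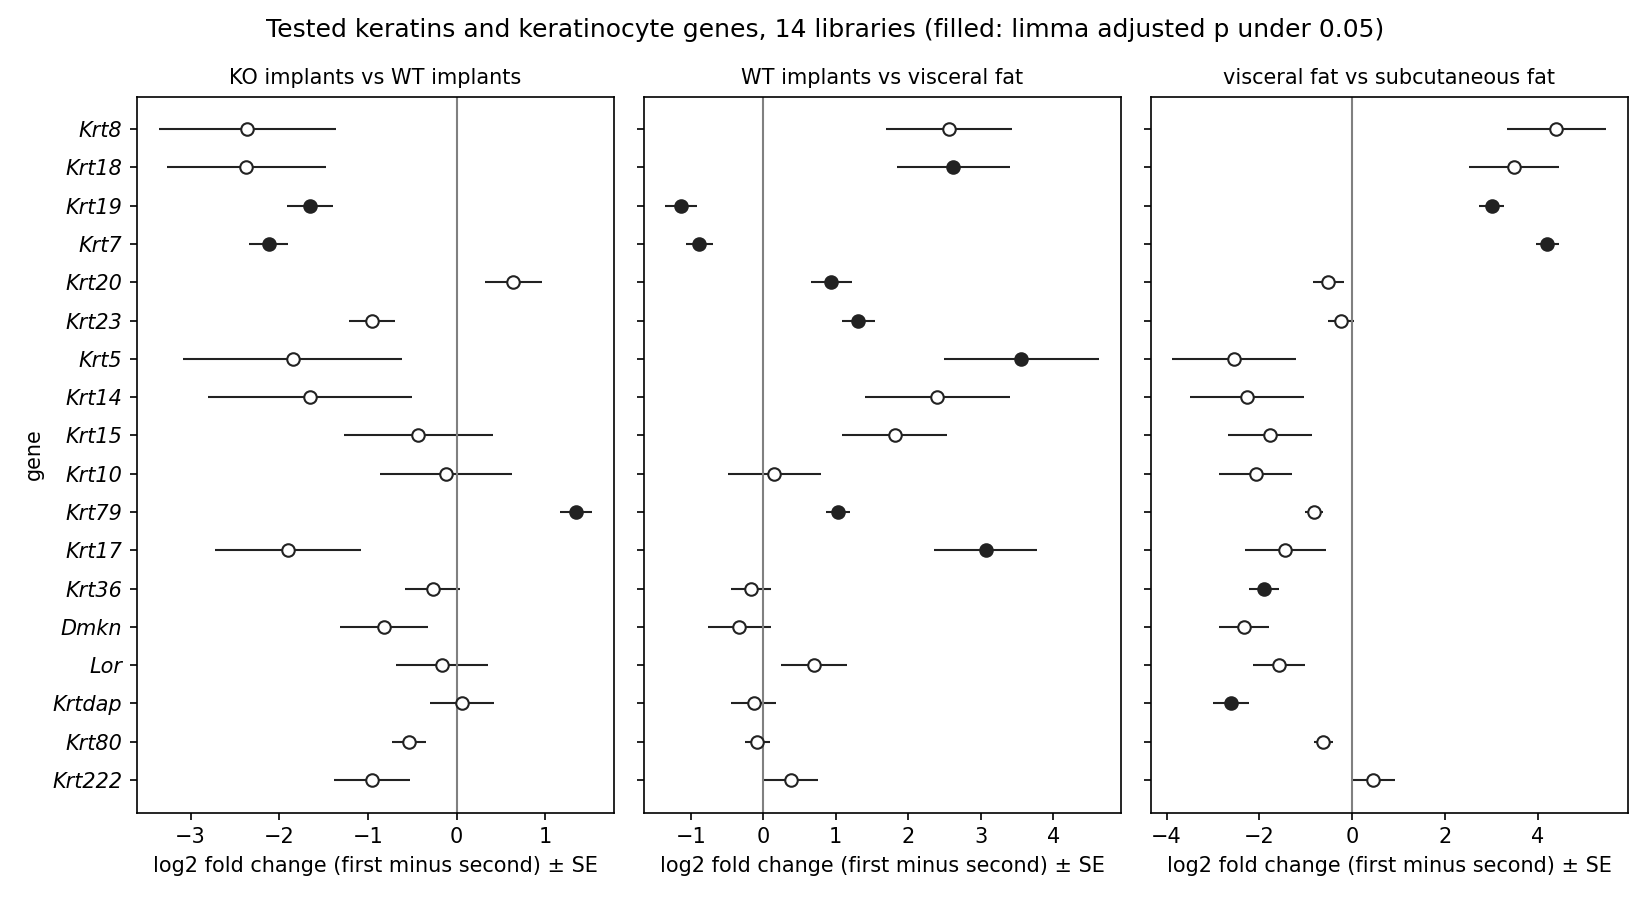
Log2 fold changes with SE (limma, 14 libraries) of the 18 tested members in 3 comparisons, filled where the adjusted p is under 0.05. Krt7 and Krt19 are called in each panel with small SE, while Krt8, Krt18 and Krt5, whose levels split within groups, have larger SE.

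Markers of epithelial cell types were read beside these keratins. The 9 mesothelium genes, among them Upk3b and Msln, surface proteins of mesothelial cells, summed to 232 to 653.4 CPM in the 5 visceral libraries and to 4.16 to 33.5 in the implants and subcutaneous fat, and all 9 were called higher in visceral fat than in WT implants, KO implants and subcutaneous fat, where 6.5%, 8.25% and 0.565% of all genes were called in that direction. Over the 16 libraries as labelled 4, 0 and 0 of the 9 were called in these comparisons by limma, where 9.66%, 0% and 0.323% of all genes were called. Upk3b was at 61.4 to 200.5 CPM in the visceral libraries and at 0 to 0.266 in the other 9 of the 14. Upk3b, Upk1b and Bnc1 reached 1 CPM only in visceral libraries among the 14, so their calls describe these levels. The list went with Krt7 and Krt19 where visceral fat was compared with implants or subcutaneous fat. Between KO and WT implants 0 of the 9 were called (10.8% of all genes). In WT implants against subcutaneous fat 1 of the 9 rose, where 8.57% of all genes did. The part of mesothelium in the levels of Krt7 and Krt19 was not tested.

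The sum of the 8 hepatocyte genes, among them the albumin gene Alb, moved with Krt8 and Krt18 in the implants. They summed to 11083, 5754, 2428 and 5246 CPM in MWM1, MWM2, MWF1 and MWF2, to 8193, 1436 and 85.5 CPM in MKM2, MKF1 and MKF2, and to 95.9 to 225.4 in visceral and subcutaneous fat. MWF1 was the lowest WT implant for Krt8, Krt18 and this sum, and MKM2, MKF1 and MKF2 had the same order in all 3. Serpina1e of this list was at 12.3 to 76.7 CPM in the WT implants but at 2.55 in MKM2. Trf was at 41.8 to 196.6 CPM in the implants and at 77.1 to 162.1 in visceral and subcutaneous fat. Between KO and WT implants 1 of the 8 genes fell, where 4.1% of all genes did. Fgb, a fibrinogen chain made by hepatocytes, was at 0 in all 5 visceral and both subcutaneous libraries, including EVM1. The 9 lung and airway genes, among them the surfactant gene Sftpc, summed to 281.6, 156.9, 512.8 and 544 CPM in the WT implants, to 33.8, 27.4 and 10.3 in MKM2, MKF1 and MKF2 and to no more than 0.713 in visceral and subcutaneous fat other than EVM1. Their part in the keratin levels was not tested.

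EVM1, which stood apart from EVM2 in Krt8 and Krt18, also held RNA of other epithelial genes. Prom2, a protein of membrane protrusions of epithelial cells, was at 52.4 CPM, against 0 to 0.119 in the other 4 visceral libraries. The epithelial transcription factor gene Elf3 was at 22.5 CPM and Pax8, a transcription factor of the reproductive tract, kidney and thyroid, at 22.3, with no read of either in the other 4. Foxj1, the regulator of motile cilia, was at 84.3 CPM against 0.151 to 0.297, while its fellow airway markers Scgb3a2, Sftpb, Sftpc and Nkx2-1 had no read in EVM1. Fgb and Pth had no read in EVM1 either. The part of this RNA in the visceral spread of Krt8 and Krt18 was not tested, and the Krt8 and Krt18 values without EVM1 are given with WT implants against visceral fat.

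The genes whose pattern over the 14 libraries was most like the mean log2 level of Krt8 and Krt18, of 13405 genes ranked by Pearson r, were Slc39a4, a zinc importer (r = 0.979), Lsr, a lipoprotein receptor of epithelial cell corners (0.947), Stard10, a lipid transfer protein (0.935), Cgn, cingulin of tight junctions (0.924), and Faah, an enzyme that degrades endocannabinoids (0.922). Slc39a4 was at 9.30 to 21.4 CPM in the WT implants, at 10.9, 4.20 and 0.386 in MKM2, MKF1 and MKF2, at 7.76 in EVM1, at 1.59 to 2.58 in the other visceral libraries and at 0.0567 and 0.342 in subcutaneous fat. On the same scale Krt7 had r = 0.608, Krt19 0.527, Krt17 0.425 and Krt5 0.294. All genes of a library share its tissue piece and its depth, so these values describe likeness over these libraries.

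Keratins of the basal layer of stratified epithelium were found in WT implants, MKM2 and ESM2. Krt5 was at 0.470, 6.21, 7.23 and 36.1 CPM in MWM1, MWM2, MWF1 and MWF2, at 6.06 in MKM2, and had no read in MKF1 and MKF2. It had no read in EVM1, EVM2 and EVFY1, was at 0.1096 and 0.119 CPM in EVFY2 and EVFN2, and was at 0 in ESM1 and 20.7 CPM in ESM2. Its partner Krt14 (chromosome 11, 100203162 to 100207548, minus strand) was at 0.282, 4.35, 2.82 and 9.06 CPM in the WT implants, at 1.73 in MKM2, at 0.357 or less in every visceral library, and at 0 and 17.7 CPM in ESM1 and ESM2. High and low libraries occurred within MWM, MWF and ESM. Per kilobase the ratio of Krt5 to Krt14 was 0.937 to 3.19 with a median of 2.05 over the 5 libraries with at least 30 reads of each.

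Krt15, which marks basal cells and the follicle bulge, was at 1.03, 1.13, 4.46 and 0.547 CPM in the WT implants, 3.46 in MKM2, 0 in MKF1 and MKF2, 0 to 0.151 in visceral fat, and 0 and 6.27 CPM in ESM1 and ESM2. Of the 3 basal keratins, Krt5 rose in WT implants over visceral fat, with 12.5 ± 16.0 CPM (SD, n = 4) against 0.0457 ± 0.0626 (n = 5), with log2 fold change 3.56 (SE 1.07, adjusted p = 0.0441, limma) without overlap. That call was lost in 11 of the 14 fits that leave out 1 library, kept without MKM2, ESM1 or ESM2, and lost with all 16 libraries as labelled (adjusted p = 0.0603, limma). Krt14 and Krt15 had log2 fold changes of 2.40 (SE 1.00, adjusted p = 0.113, limma) and 1.81 (SE 0.73, adjusted p = 0.105, limma). Both passed without ESM1 (adjusted p = 0.0204 and 0.021, limma) or without ESM2 (adjusted p = 0.0205 and 0.0212, limma), the libraries that lie far apart for these genes and enter the shared spread. None of the 3 was called by limma between KO and WT implants (Krt5 log2 fold change -1.85, SE 1.23, adjusted p = 0.366, limma), or against subcutaneous fat, except Krt14 in KO implants against ESM2 alone when ESM1 was left out (log2 fold change -4.10, adjusted p = 0.0366, limma, with the spread taken from other codes). DESeq2 on the recovered reads gave Krt5 and Krt14 adjusted p of 0.000136 and 3.74e-09 between KO and WT implants, and edgeR gave 0.243 and 0.247.

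Of the markers that travel with basal keratins, Trp63, the transcription factor of basal cells, was at 4.42, 9.21, 7.60 and 10.5 CPM in the WT implants, at 1.99, 0.725 and 0.901 in MKM2, MKF1 and MKF2, and at 1.31 and 16.7 in ESM1 and ESM2, but also at 6.08 CPM in both EVM2 and EVFY1, which held almost no basal keratin. Trp63 belongs to a list of 10 keratinocyte genes, of which 9 were tested. Against visceral fat 3 rose and 1 fell in WT implants, where 15.9% and 6.5% of all genes did. Between KO and WT implants 0 were called (10.8% of all genes). The list summed to 80.0 to 125.3 CPM in WT implants and 109.8 in EVM1. Sbsn of this list went the other way, at 10.8 to 17.7 CPM in WT implants and 19.1 to 47.65 in visceral fat. Prss16, a protease of the thymic cortex, was at 75.0 CPM in MWF2, the WT implant highest for Krt5, Krt14 and Krt17, at 5.91 in MKM2 and at no more than 0.584 in the others of the 14. The 6 thymic epithelium genes summed to 129.6 CPM in MWF2, 15.1 in MKM2 and 2.36 to 7.12 in the other 12 libraries. Thymic epithelium is known to hold basal keratins, and its part in the level of MWF2 was not tested. Among the genes most like the mean log2 level of Krt5 and Krt14 over the 14 libraries were Snu13 (r = 0.900), Ache (0.852), Ndufb2 (0.837) and Fcgbp (0.834). Snu13, a splicing protein, ran only from 28.7 to 45.1 CPM. Of the other members, Krt17 had r = 0.949 with this pair and Krt15 0.795.

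The keratins of the upper epidermis were highest in a single library. Krt10, the type I partner of Krt1, was at 31.7 CPM in ESM2 and at 0.893 to 2.08 CPM in the other 13 libraries of the 14. Krt1 was at 12.4 CPM in ESM2 and at 0.213 or less elsewhere, and Krt77, a keratin of sweat ducts and interfollicular epidermis, at 17.8 against 0.487 or less. Krt2 and Krt9, the keratins of late differentiation and of footpads, were at no more than 0.213 CPM in any library. ESM1, which has the same code as ESM2, had 1.87 CPM of Krt10 and no read of Krt1 or Krt77. Krt10 was the only member of this class that could be tested and was not called in any comparison (adjusted p = 0.142 to 0.998, limma), but was called lower in WT implants, KO implants and visceral fat than in ESM2 alone when ESM1 was left out (adjusted p = 0.00294, 0.00315 and 0.00248, limma). In such a fit the side of subcutaneous fat is 1 library, and its spread is taken from the other codes.

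Other genes of cornified epidermis were present in the same library. Flg2 was at 1.54 CPM, Flg, filaggrin, at 0.854 and Casp14, the caspase of cornifying cells, at 0.285 in ESM2, and Flg2 and Casp14 had no read in the other 15 libraries. Of the 28 cornified envelope genes, 4 had no read in ESM2, against 11 to 18 in each of the other libraries. ESM2 also had the 7 skeletal muscle genes at 17091 CPM in sum, against 138.1 in ESM1. Muscle genes were high in the WT implants too, at 2924 to 40165 CPM, where suprabasal keratins were low. The part of skin in the RNA of ESM2 was not tested.

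**Figure D5:**
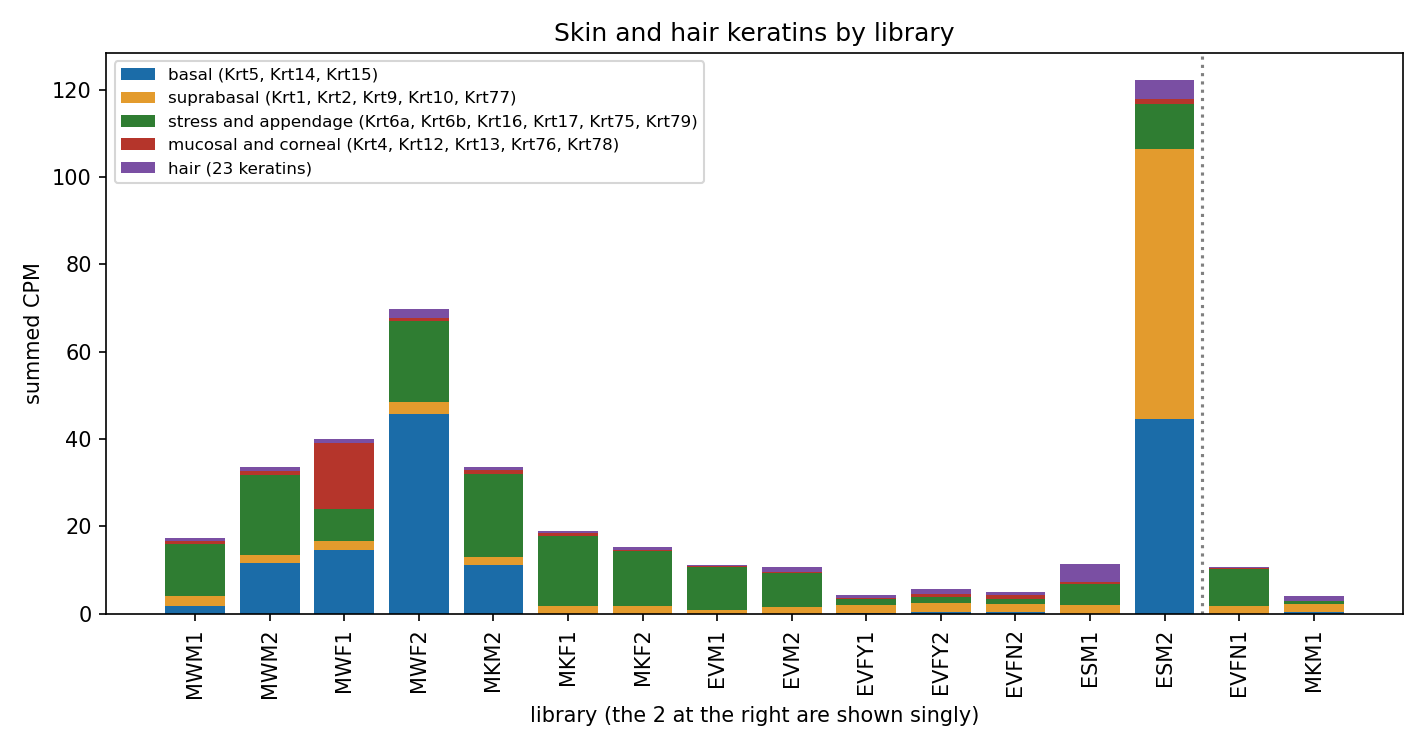
Stacked bars of the summed CPM of 5 classes of skin, mucosa and hair keratins in each library, from 0. ESM2 reaches 122.3 CPM, of which 61.9 are suprabasal, MWF2 reaches 69.9 with 45.7 basal, MWF1 has 15.1 of mucosal keratins, and the visceral libraries of the 14 stay at 4.37 to 11.1.

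Each of the 3 keratinocyte genes was highest in ESM2, and ESM1 was second for Krtdap alone. Dmkn, dermokine, a secreted protein of the upper epidermis, was at 4.37 and 16.7 CPM in ESM1 and ESM2, at 0.621 to 1.54 in the WT implants and at 0.407, 0.0966 and 0.386 in MKM2, MKF1 and MKF2. In visceral fat it was at 4.69 CPM in EVM1 and 0.654 to 1.40 in the other 4. Dmkn was lower in WT implants (log2 fold change -2.67, SE 0.55, adjusted p = 0.0186, limma) and in KO implants (-3.49, SE 0.59, adjusted p = 0.0053, limma) than in subcutaneous fat, and the difference of visceral from subcutaneous fat did not pass (-2.34, SE 0.54, adjusted p = 0.11, limma), and passed without EVM1 (adjusted p = 0.0494, limma). The call in WT implants was lost without MWM1, MWF2 or ESM2.

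Krtdap, keratinocyte differentiation-associated protein, is the neighbour of Dmkn on the plus strand of chromosome 7 (30787896 to 30791097, with Dmkn at 30763756 to 30781063). It was at 2.84 and 5.64 CPM in ESM1 and ESM2, at 0 to 0.744 in the WT implants, 0 to 0.306 in the KO implants and 0.116 to 0.384 in visceral fat. The subcutaneous libraries lay above all others. Krtdap passed the filter only through the ESM libraries, where it is high, so its calls against subcutaneous fat are a description of these levels: the log2 fold changes of WT implants, KO implants and visceral fat were -2.75 (SE 0.39), -2.68 (SE 0.43) and -2.61 (SE 0.39). Unlike Krt1, Krt10 and Krt77, Dmkn and Krtdap were above the implants in ESM1 as well as in ESM2. Lor, loricrin of the cornified envelope, was at 5.98 CPM in ESM2, 0.624 in ESM1 and 0.178 to 1.16 in the other 12 libraries, and was not called in any comparison over the 14 libraries. Without ESM1 it was called lower than in ESM2 alone in WT implants, KO implants and visceral fat (adjusted p = 0.0341, 0.00861 and 0.0113, limma), again with the spread taken from other codes, and without either ESM library it was called higher in WT implants than in visceral fat (adjusted p = 0.0409 and 0.0421, limma).

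Among the keratins of appendages and stressed epidermis, Krt17 and Krt79 had different patterns. Krt17, a keratin of hair follicles and of wounded epidermis, was at 0.470, 5.36, 3.08 and 15.3 CPM in MWM1, MWM2, MWF1 and MWF2, at 2.09 in MKM2 and at 0 in MKF1 and MKF2. Visceral fat had 1 read of it in 5 libraries, and ESM1 and ESM2 had 0.0567 and 2.90 CPM. WT implants exceeded visceral fat 552-fold at equal depth, from 415 reads against 1 (exact 95% counting interval 98.4 to 21800, adjusted p = 0.0182, limma), without overlap, and the call was lost without MWM2 or MWF2 and kept with all 16 libraries as labelled (adjusted p = 0.0287, limma). KO implants had 0.696 ± 1.21 CPM (SD, n = 3) against 6.06 ± 6.49 (n = 4) in WT implants and did not pass (log2 fold change -1.90, SE 0.82, adjusted p = 0.173, limma). Krt6a, Krt6b, Krt16 and Krt75, the other keratins of this class, were at no more than 1.97 CPM, with Krt6a highest in MWF1 and Krt16 in ESM2 (1.42 CPM).

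Krt79 (chromosome 15, 101929332 to 101940324, minus strand), a keratin of the upper hair follicle and sebaceous duct, had a pattern of its own. It was at 11.5 and 13.04 CPM in MWM1 and MWM2, at 2.13 and 3.04 in MWF1 and MWF2, and at 16.8, 15.9 and 12.4 in MKM2, MKF1 and MKF2. In visceral fat it was at 9.71 and 7.75 CPM in EVM1 and EVM2 and at 1.21, 1.32 and 1.25 in EVFY1, EVFY2 and EVFN2, and in subcutaneous fat at 4.82 and 4.90 in ESM1 and ESM2. Where a code had 2 libraries they lay close together, and the KO implants of both sexes lay with or above the male WT implants. Krt79 rose in KO over WT implants from 7.42 ± 5.63 CPM (SD, n = 4) to 15.0 ± 2.30 (n = 3), with log2 fold change 1.35 (SE 0.18, adjusted p = 0.00283, limma), in each fit that leaves out 1 library. The groups overlapped, since MWM2 lay above MKF2. MKM2 (16.8 CPM) lay above both male WT implants (11.5 and 13.04 CPM). MKF1 and MKF2 (15.9 and 12.4 CPM) lay well above both female ones (2.13 and 3.04 CPM). The rise was thus larger in the female libraries, and its SE, pooled from spread within codes, does not measure this split. Whether this difference varied with sex was not tested.

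Krt79 was also higher in WT implants than in visceral fat (log2 fold change 1.03, SE 0.16, adjusted p = 0.00326, limma), in KO implants than in visceral fat (2.38, SE 0.18, adjusted p = 0.000106, limma) and in KO implants than in subcutaneous fat (1.56, SE 0.22, adjusted p = 0.0021, limma). Codes are weighted equally, and EVM lay well above EVFY and EVFN, as MWM lay above MWF. The size of the differences from visceral fat thus depends on which codes make up each side. The part of sex in them was not tested. Male implants exceeded female ones by 1.15 (SE 0.18, adjusted p = 0.029, limma), a call that was lost without MWM1, MWM2, MWF1, ESM1 or ESM2. This difference lay mostly in the WT implants, with MWM1 and MWM2 at 11.5 and 13.04 CPM and MWF1 and MWF2 at 2.13 and 3.04. Among the KO implants MKM2 was at 16.8 CPM, near MKF1 and MKF2. In MKF1 and MKF2 Krt79 was at 15.9 and 12.4 CPM while Krt5, Krt14 and Krt17 had no read, and in MKM2 all 4 had reads. None of these Krt79 calls was kept with all 16 libraries as labelled, where the log2 fold change of KO over WT implants was 0.36 (SE 0.74, adjusted p = 0.815, limma).

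Keratins of stratified mucosa were found in MWF1. Krt13 and Krt4, the pair of oral and oesophageal epithelium, were at 8.61 and 6.53 CPM there. Krt13 was at no more than 0.204 CPM in any other library and Krt4 at no more than 0.764. Neither reached the filter in 2 libraries, so neither was tested. Krt12, Krt76 and Krt78 were at no more than 0.854 CPM.

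Hair keratins were nearly silent. Of 23 keratins of the inner root sheath and hair shaft, 9 had no read in any library, and all 23 together summed to 0.223 to 2.25 CPM in the implants and visceral fat of the 14 libraries. The sums of 4.08 CPM in ESM1 and 4.33 in ESM2 came mostly from Krt36, a type I keratin on chromosome 11 (100102007 to 100105626, minus strand), at 3.86 and 4.04 CPM against 0.112 to 1.04 in the other 12 libraries. Krt36 passed the filter only with the ESM libraries, since EVFY2 alone of the others exceeded 1 CPM, so its calls against subcutaneous fat also describe these levels: the log2 fold changes of WT implants, KO implants and visceral fat were -2.08 (SE 0.34), -2.35 (SE 0.37) and -1.90 (SE 0.33). Of these calls, those of KO implants and visceral fat were lost with all 16 libraries as labelled (adjusted p = 0.0598 and 0.0574, limma), that of WT implants without ESM1, and that of visceral fat in 10 of the 14 fits that leave out 1 library. A list of 8 hair follicle genes summed to 3.06 and 3.36 CPM in ESM1 and ESM2. These sums lay within the range of the other libraries (1.90 to 26.3 CPM). The highest sum, in MWF2, came mostly from Gata3 (17.8 CPM), Foxn1 (3.71) and Lgr5 (2.92). Of the 3 tested, 2 rose in WT implants against visceral fat and 2 against subcutaneous fat, where 15.9% and 8.57% of all genes rose. Between KO and WT implants 2 of the 3 fell, where 4.1% of all genes did. With all 16 libraries as labelled these counts were 2, 1 and 1, where 9.66%, 2.47% and 1.72% of all genes were called.

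Krt80, a type II keratin found in many epithelia at the start of differentiation, was present in every library, at 6.42 to 17.9 CPM in the 14. It was at 17.9 and 16.7 CPM in ESM1 and ESM2, 8.87 to 12.4 in visceral fat, 8.47 to 13.6 in the WT implants and 6.42, 6.57 and 9.06 in MKM2, MKF1 and MKF2. KO implants were lower than subcutaneous fat (log2 fold change -1.24, SE 0.23, adjusted p = 0.00745, limma) and than visceral fat (-0.62, SE 0.19, adjusted p = 0.0425, limma), the latter lost in 9 of the 14 fits that leave out 1 library. Krt222, a keratin-like gene, was at 0.683 to 4.50 CPM and was not called in any comparison. The other 4 keratins of no class were at no more than 0.122 CPM.

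Genes that build the cell contacts and regulate the epithelial state were counted for comparison. Of 18 tested desmosome and adhesion genes, 7 rose and 2 fell in WT implants against visceral fat (median log2 fold change 1.44, against 0.11 over all genes), where 15.9% of all genes rose and 6.5% fell. With all 16 libraries as labelled 4 of them rose, where 9.66% of all genes were called. Dsc2, desmocollin, rose from 0.116 ± 0.126 CPM (SD, n = 5) to 8.27 ± 2.59 (n = 4) with adjusted p = 0.000432 (limma), and Cdh1, E-cadherin, from 4.60 ± 9.62 to 33.9 ± 3.78 CPM with adjusted p = 0.00977 (limma). Jup, plakoglobin, a plaque protein of cell contacts, fell from 488 ± 75.1 to 241 ± 46.5 CPM with adjusted p = 0.013 (limma). Between KO and WT implants, where 4.1% of all genes fell, 1 of the 18 fell, Dsc2 (log2 fold change -1.71, SE 0.38, adjusted p = 0.0244, limma), and 0 with all 16 libraries as labelled. Dsc2 was at 9.77, 4.80, 7.86 and 10.6 CPM in the WT implants and at 4.89, 1.498 and 0.258 in MKM2, MKF1 and MKF2, the order that Krt8 and Krt18 had within the KO implants.

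Of 18 tested epithelial transcription factors and regulators, 8 rose and 0 fell in WT implants against visceral fat (median 1.69), against 15.9% of all genes risen, and 4 rose with all 16 libraries as labelled, where 9.66% of all genes were called. Cldn4, a tight junction claudin, rose by 2.40 (SE 0.31, adjusted p = 0.00142, limma), Grhl2, a regulator of epithelial identity, by 1.83 (SE 0.32, adjusted p = 0.00572, limma) and Klf5 by 1.70 (SE 0.31, adjusted p = 0.00738, limma). Outside the WT implants Cldn4 reached 1 CPM only in MKM2 (2.60 CPM). It thus passed the filter only with the WT implants, where it is high, and its call describes these levels. Grhl2 was the single gene of the list that fell in KO against WT implants, where 4.1% of all genes fell. It went from 1.94 ± 0.377 to 0.203 ± 0.310 CPM (adjusted p = 0.0221, limma), and was also called with all 16 libraries as labelled (adjusted p = 0.0325, limma). Outside the WT implants Grhl2 was at no more than 0.893 CPM (EVM1). It thus passed the filter only through the WT implants, where it is high, and its calls describe these levels. Of 10 tested cornified envelope genes, out of 28, Sprr1a rose and Sbsn fell in WT implants against visceral fat and 0 were called with all 16 libraries, while 0 were called between KO and WT implants. These shares lie near or under those of all genes, 22.4% in the first comparison, 9.66% in the same comparison with 16 libraries and 10.8% in the last.

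The other intermediate filament genes were measured beside the keratins. Vim, vimentin of mesenchymal cells, was at 1300 to 3490 CPM in the 14 libraries, where the 6 simple-epithelium keratins summed to 3.56 to 176.1 CPM. Of the 16 genes of that list, 8 rose in WT implants against visceral fat, against 15.9% of all genes, and between KO and WT implants 2 rose and 4 fell, against 6.67% and 4.1% of all genes. The 4 were Nefl, Nefm, Nefh and Prph, which encode filaments of neurons, with log2 fold changes of -1.59 (SE 0.19, adjusted p = 0.00146, limma), -1.77 (SE 0.27, adjusted p = 0.00438, limma), -1.77 (SE 0.29, adjusted p = 0.0066, limma) and -0.98 (SE 0.25, adjusted p = 0.0383, limma). Outside the WT implants Nefl reached 1 CPM only in MKM2 (1.88 CPM). It thus passed the filter only with the WT implants, where it is high, and its calls describe these levels. Over the 16 libraries as labelled 3 of the list fell and 0 rose between KO and WT implants, where 1.72% of all genes were called.

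The library labelled EVFN1 had Krt8 at 19.3 CPM, Krt18 at 12.6, Krt19 at 1.16 and Krt7 at 0.696. This is the combination of MKF1, with the first pair present and the second almost absent, and not that of EVFN2, where Krt8 was at 5.70 and Krt19 at 22.99 CPM. Its mesothelium genes summed to 4.99 CPM, against 388.7 in EVFN2, and its hepatocyte genes to 3290 against 181.7. Krt79 was at 8.59 CPM there, against 1.25 in EVFN2. The library labelled MKM1 had Krt8 at 9.70 CPM, Krt18 at 9.09, Krt19 at 39.1 and Krt7 at 18.5, close to EVFY1 and EVFY2 and away from MKM2. Its mesothelium genes summed to 573.5 CPM, against 17.5 in MKM2, and Krt79 was at 0.606 CPM, against 16.8 in MKM2. Neither library had a read of Krt5, and Krt14 had 0 CPM in the first and 0.386 in the second.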

How the data were processed

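The deposited table holds CPM for each gene and library, which the authors made from read counts. The submitters' processing notes name cutadapt 2.7, FastQC 0.11.4, STAR 2.5.4, featureCounts and Subread 1.6.3 and the build mm10. The strand rule is not given in the sources used here, nor are the order of the steps, their settings and the annotation, and reads of overlapping or antisense genes, and of near-identical keratins such as Krt6a and Krt6b, may have been shared. Per the labels' protocols, ribosomal RNA was removed with RNase H and libraries were made from random hexamers. Dividing by the value of 1 read gave whole reads for 100% of nonzero values (tolerance 0.001 reads), with 16444965 to 25805502 reads per library. Symbols were matched to GENCODE M21 (99.0%).

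Tests used limma 3.58.1 (R 4.3.3) on log2(CPM + 0.5), with a mean-variance trend, robust empirical Bayes, 1 mean per code and Benjamini-Hochberg adjustment over the 17871 genes that reached 1 CPM in 2 or more of 14 libraries, called at an adjusted p under 0.05. Sides of the 7 comparisons weight codes equally, and the KO implants include MKM through MKM2 alone, whose spread is assumed to be that of the other codes. The pseudocount makes fold changes of low genes, given as differences of log2(CPM + 0.5), smaller than those of CPM. The members, classes, marker lists and the removal of the libraries labelled EVFN1 and MKM1 were chosen with earlier results of these data known. Named were Krt7, Krt8, Krt18, Krt19, Krt5, Krt14, Krt15, Krt1, Krt10, Krt17, Krt79, Krtdap, Dmkn, Lor and any other member with at least 5 CPM in a library, and from each pathway list the genes of smallest adjusted p; marker genes given by library, and Vim, Flg, Flg2 and Casp14, were picked after their values were seen. The alternatives were pseudocounts of 0.1 and 2, no filter, median-of-ratios scaling, edgeR 4.0.16 and DESeq2 1.42.0 on the recovered reads, all 16 libraries, the replicate number as a block, and leaving out each library. Of the genes most like Krt5 and Krt14 in pattern, 1 is not reported here. The limma fit was tested on simulated data. Intervals are exact at 95% and, like the floor of 3 reads, cover counting error only. Tables were made with pandas 2.3.3 and figures with matplotlib 3.10.9. Replicates of each code differed beyond sampling noise (chi-square per degree of freedom 22.3 to 214).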

Additional observations from a re-analysis of the deposited data

Results flagged for a closer look

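The libraries labelled EVFN1 and MKM1 enter no mean or test, and both held keratin RNA above the 3 reads that a count of 0 allows. In the library labelled EVFN1 the simple-epithelium keratins summed to 34.98 CPM, the suprabasal ones to 1.682, the stress and appendage ones to 8.585 and the 3 keratinocyte genes to 1.508. In the library labelled MKM1 the simple-epithelium keratins summed to 78.8 CPM, the basal ones to 0.4408, the suprabasal ones to 1.763, the stress and appendage ones to 0.6612 and the keratinocyte genes to 1.378.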

How the results depend on the processing

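The 14-library calls of 38 gene results were recomputed under 8 alternative settings and 14 fits without 1 library, and 0 of the 830 values changed direction, while 679 stayed on their side of the threshold and 151 lost the call. Counts of members called, 3 for KO against WT implants, 8 for WT implants and 5 for KO implants against visceral fat, 8 for each implant type against subcutaneous fat, 4 for visceral against subcutaneous fat and 2 for male against female implants, stayed within 1.5 times of these except as follows. With all 16 libraries as labelled they were 0, 2, 0, 5 and 2, 1 and 0. DESeq2 on the recovered reads called 7 between KO and WT implants, 14 between visceral and subcutaneous fat and 5 between male and female implants. WT implants against visceral fat gave 5 without a filter on low values and 5 with edgeR, and visceral against subcutaneous fat gave 2 with a pseudocount of 0.1. Leaving out 1 library gave 3 to 6 for KO against WT implants, 3 to 9 for WT implants and 3 to 5 for KO implants against visceral fat, 5 to 8 for WT implants and 4 to 9 for KO implants against subcutaneous fat, 2 to 6 for visceral against subcutaneous fat, and 0 to 3 for male against female implants. Median-of-ratios scaling moved the median of all genes by -0.11 (log2) in each implant type against subcutaneous fat and by less elsewhere, and ended 1 of the 38 calls. With the replicate number as a block (replicate block) the counts were 3, 6, 4, 7, 8, 4 and 1 in the order above, so that male against female implants gave 1. The numbers were not taken as pairs, since deviations of same-numbered libraries correlated at -0.44 to 0.34 over 15 pairs of codes and only 7 exceeded 0.1. The cause of these changes was not tested. Depth limits members under 3 reads, where a library at 0 and a library at 1 read cannot be told apart.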
